A study of Mus musculus with 10 samples.

Results

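The 10 genes Krt79, Ear1, Ear2, Siglecf, Fabp1, Fabp4, Pparg, Cpne5, Car4 and Chil3 are characteristic of the resident alveolar macrophage of the mouse lung. They were followed through 5 times after thoracic irradiation. Each symbol matched 1 Ensembl gene ID of the deposited tables in GENCODE M21, so the members are 10 of 45786 genes, and all 10 passed the filter on low counts. They were chosen with earlier results of the same pools in view. Their differences between irradiated and control lung are therefore given as values. Where calls of a fit over all genes include them, the count is printed as a description and nothing is read from it.

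RNA sequencing was run on cell suspensions of the whole lung of C57BL/6J mice, an inbred strain. Irradiated mice received 12.5 Gy of γ-radiation to the whole thorax, and age-matched controls received 0 Gy. The times were 24 hours, 1 week, 4 weeks, 12 weeks and 32 weeks, with 1 irradiated and 1 control library at each time. Each of the 10 libraries is a pool of RNA from 3 mice, so there is no replicate pool at any time and the spread between mice is not visible. The labels name the whole lung as the source, so fewer macrophages and less RNA of a gene per macrophage cannot be told apart in any value below. Libraries held 8679303 to 17472539 fragments before the authors' scaling, the deepest being the 4-week irradiated pool and the shallowest the 12-week control. No pair of libraries was identical.

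Alveolar macrophages live in the airspace, where they take up and break down surfactant lipid and inhaled particles. Their precursors settle in the lung around birth. There, GM-CSF from epithelial cells and TGF-β switch on the nuclear receptor PPARγ, which sets up the lipid-handling programme of the mature cell. In the adult they renew themselves largely in place, and after they are lost monocytes can enter the airspace and take on much of the same identity. The members fall into the regulator Pparg, the lectin Siglecf, the ribonucleases Ear1 and Ear2, the fatty acid carriers Fabp1 and Fabp4, the less studied identity genes Krt79 and Cpne5, and the enzyme or enzyme-like proteins Car4 and Chil3.

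Promoter stretches of 4 members show where the genes resemble each other and where they do not. RefSeq on GRCm38.p6 held promoters for 9 of the 10 members, with 3 entries for Pparg, and Fabp4 had no entry. Ear1 and Ear2 are duplicated genes of the same chromosome, with Ear10 between them, and their stretches are shown because the upstream bases are nearly the same. Over 248 aligned of 250 bases upstream of the start, 99.2% were identical, and the capitals mark the 4 bases in each that differ or lie outside the alignment. Ear1 lies at chr14:43819640-43819889 on the minus strand and Ear2 at chr14:44102404-44102653 on the plus strand. The Ear1 start is that of RefSeq and of 1 of the 2 GENCODE transcripts of the gene. The other begins far upstream, so the stretch lies within the gene bounds given below and within the span of that transcript.
Ear1: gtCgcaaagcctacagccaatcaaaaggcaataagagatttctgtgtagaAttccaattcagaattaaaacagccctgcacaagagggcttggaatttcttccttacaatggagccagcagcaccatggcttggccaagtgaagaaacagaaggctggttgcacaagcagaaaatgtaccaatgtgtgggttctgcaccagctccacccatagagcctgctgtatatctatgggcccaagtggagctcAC
Ear2: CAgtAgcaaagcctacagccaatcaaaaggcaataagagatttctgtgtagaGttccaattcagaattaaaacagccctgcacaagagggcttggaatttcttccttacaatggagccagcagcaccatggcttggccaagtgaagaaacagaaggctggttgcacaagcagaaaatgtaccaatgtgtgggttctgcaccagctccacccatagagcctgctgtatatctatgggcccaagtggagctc
Siglecf and Fabp1 are shown for the motif letters they hold. In the Siglecf stretch, chr7:43351091-43351340 on the plus strand, the capitals mark GAGGAAG read on the other strand. These are letters of the kind bound by the myeloid factor PU.1. In the Fabp1 stretch, chr6:71199629-71199826 on the plus strand, the capitals mark the hexamer AGGNCA, 1 free base and the same hexamer again, read on the other strand. This is a direct repeat of the kind bound by PPAR with RXR.
Siglecf: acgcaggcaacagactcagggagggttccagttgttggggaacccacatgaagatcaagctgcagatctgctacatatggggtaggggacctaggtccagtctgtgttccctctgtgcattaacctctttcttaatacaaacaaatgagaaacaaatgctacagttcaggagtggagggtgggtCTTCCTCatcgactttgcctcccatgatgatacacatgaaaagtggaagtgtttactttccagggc
Fabp1: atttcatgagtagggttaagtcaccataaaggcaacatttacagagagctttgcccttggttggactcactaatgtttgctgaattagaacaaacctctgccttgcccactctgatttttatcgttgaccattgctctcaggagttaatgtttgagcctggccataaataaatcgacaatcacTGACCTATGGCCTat
The search covered both strands of all 32851 RefSeq promoters, each from 250 bases before to 50 bases after the start. GAGGAAG was held by 13.6% of all promoters, and by those of Siglecf and Fabp1 among the members. The direct repeat was held by 0.381% of all promoters and, among the members, by Fabp1. Its single hexamer AGGTCA, which overlaps the repeat, was held by 16.3% and occurred in Fabp1 and Pparg. TTGCNNAA, of the kind bound by C/EBP factors, was held by 10.8% and occurred in Ear1, Ear2, Fabp1 and Pparg. The E-box CACGTG, held by 7.15%, was in no member's window.

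In unirradiated lung, the members differed widely in level per length. FPKM divides a gene's fragments by its length and by the library's size, so levels can be compared between genes. Chil3 had the highest control level, 2450 ± 925 FPKM (SD, n = 5 pools of different ages), followed by Ear2 with 329 ± 60.3. Fabp1 (135 ± 36.7), Ear1 (122 ± 19.4) and Car4 (105 ± 27.8 FPKM) came next, with overlapping ranges. The lower tier was Krt79 (44.1 ± 9.0), Fabp4 (27.0 ± 7.09), Cpne5 (26.9 ± 4.68), Siglecf (25.9 ± 5.24) and Pparg (23.1 ± 5.67 FPKM). The ranges of the 5 controls did not overlap between Chil3 and Ear2, between Ear2 and Fabp1, or between Car4 and Krt79. All other neighbours in the order overlapped. The plot of level per length shows this order, which in the irradiated pools is blurred by much wider ranges.

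**Figure D1:**
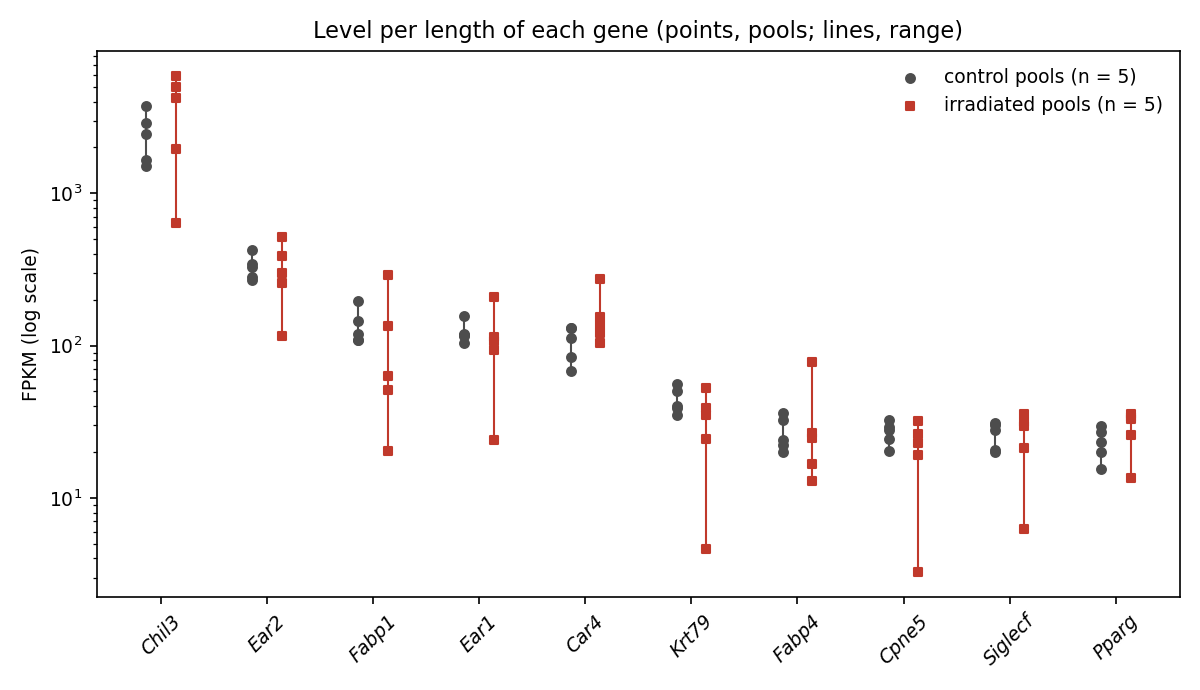
FPKM on a log axis for each of the 10 genes, ordered by mean control level; grey points are the 5 control pools, red squares the 5 irradiated pools, and lines span the lowest to the highest pool. Krt79, Cpne5 and Fabp1 have the longest red lines, and in every gene but Car4 the lowest red square is the 4-week pool.

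Krt79 had the largest difference of the members at any time. It encodes a type II keratin and is used in mouse data to recognise alveolar macrophages (ENSMUSG00000061397.7, GRCm38 chromosome 15, 101929332 to 101940324, minus strand). In time order, from 24 hours to 32 weeks, it was at 166, 145, 108, 115 and 134 CPM in the control pools, where CPM is a gene's count relative to the scaled library total. The irradiated pools had 149, 105, 12.6, 66.8 and 106 CPM. The 4-week irradiated pool stood far below every other pool, while the 24-hour and control values lay close together. At 4 weeks this was 11.8% of the matched control, or 8.49-fold lower (log2 −3.09). At 12 weeks Krt79 was still 1.72-fold and at 32 weeks 1.27-fold below its matched control, and it was the only member below its matched control at all 5 times. Precision was not limited by depth here, since the 4-week irradiated library, the deepest of the 10, held 230 Krt79 fragments and its control 1691.

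Cpne5 followed a similar course. It encodes a copine, a protein that binds phospholipid in the presence of calcium (ENSMUSG00000024008.13, chromosome 17, 29155556 to 29238167, minus strand). Control pools had 46.1, 47.0, 39.18, 47.0 and 48.6 CPM in time order, the narrowest control range of the members (1.24-fold). Irradiated pools had 52.6, 39.15, 6.06, 37.7 and 27.1 CPM. The 4-week irradiated pool was again far below all others, 6.32-fold under its control (log2 −2.66). At 32 weeks Cpne5 was 1.79-fold below its control and below all 5 control pools.

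Siglecf was lower at 4 weeks and near control at 32 weeks. It encodes a sialic acid-binding lectin carried by alveolar macrophages and by eosinophils (ENSMUSG00000039013.14, chromosome 7, 43351341 to 43359531, plus strand). Control pools had 133, 139, 98.8, 127 and 99.97 CPM and irradiated pools 163, 145, 26.9, 85.6 and 122 CPM in time order. Only the 4-week and 12-week irradiated pools lay under all controls, the former by 3.65-fold against its matched control (log2 −1.87). Genes of eosinophils, the other carriers of this lectin, were also measured. Their 6 listed genes summed to 4.30 to 11.3 FPKM in controls, to 7.01 FPKM in the 4-week irradiated pool and to 21.4 FPKM in the 32-week irradiated pool, where Siglecf was at 29.7 FPKM. Of the 4 tested, Ccr3 had the highest control mean, 10.98 CPM, and none passed with edgeR at any single time (0 to 2 unadjusted; DESeq2 0, limma + 1 at most 2). The eosinophil granule genes Prg3 and Epx had too few counts to be tested. The part of eosinophils in the Siglecf values was not tested.

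Ear1 and Ear2 encode eosinophil-associated ribonucleases of the RNase A family, which in mouse lung are made by alveolar macrophages as well. Both were lower at 4 weeks, Ear1 by more. Ear1 (ENSMUSG00000072601.4, chromosome 14, 43818765 to 43875517, minus strand) had 193, 137, 138, 149 and 166 CPM in controls. In irradiated pools it had 250, 142, 28.2, 122 and 107 CPM. Ear2 (ENSMUSG00000072596.4, chromosome 14, 44102654 to 44103534, plus strand) had 544, 423, 373, 436 and 408 CPM in controls. In irradiated pools it had 645, 331, 141, 464 and 359 CPM.
At 4 weeks Ear1 was 4.89-fold and Ear2 2.64-fold below the matched control, although their upstream stretches printed above are nearly identical. At 24 hours both lay above every control pool, and at 12 weeks Ear2 was at 106.5% and Ear1 at 81.9% of its control. The split between the 2 genes is uncertain. Of the 50-base stretches of the Ear1 transcript, 23.8% also occur in Ear2 and 16.9% in the paralog Ear10, and for Ear2 the share in Ear10 is 26.0%. Ear1 also overlaps the pseudogenes Ear-ps12 and Ear-ps9 on its own strand and the lincRNA AC154806.1 on the other. Ear2 is overlapped over its whole span, 881 bases, by the lincRNA Gm49101 on the other strand. These are overlaps of gene spans, and overlaps of exons were not examined. The library kit does not mark strand, so fragments of these genes cannot be told apart where exons overlap. Ear10 itself, at 5.44 ± 0.44 CPM in controls, was at 1.77 CPM in the 4-week irradiated pool.

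Fabp1, the liver-type fatty acid carrier, was lower from 4 weeks onward (ENSMUSG00000054422.7, chromosome 6, 71199827 to 71205023, plus strand). Its control pools had 114, 82.3, 67.4, 64.7 and 79.6 CPM in time order. Irradiated pools had 164, 79.8, 11.2, 27.7 and 34.1 CPM. The 24-hour irradiated pool was the highest of all 10, the 1-week pools differed by 1.03-fold, and the 3 later irradiated pools lay under every control. The matched differences were 5.95-fold lower at 4 weeks (log2 −2.57), 2.32-fold at 12 weeks and 2.33-fold at 32 weeks. Fabp1 was thus the member that remained furthest below control at the last 2 times. On the log2(FPKM + pseudocount) scale, with a pseudocount of 1 or 0.1, Fabp1 lay less than 2-fold below its control at 32 weeks. Of the liver and gut genes Alb, Apoa1, Ttr and Fabp2, none had enough counts to be tested, and their sum was at most 1.77 FPKM in any pool.

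Fabp4, the adipocyte-type carrier and a known PPARγ target, took another course (ENSMUSG00000062515.3, chromosome 3, 10204088 to 10208576, minus strand). Control pools had 40.8, 28.3, 26.5, 46.9 and 30.9 CPM in time order. Irradiated pools had 31.5, 20.6, 14.7, 27.9 and 86.4 CPM. It lay 1.29- to 1.8-fold below its matched control at the first 4 times and 2.79-fold above it at 32 weeks (log2 1.48), where the irradiated pool exceeded every other pool. Beside this, adipocyte genes were scarce. Adipoq, Plin1, Lep and Retn had too few counts to be tested. Cidea, with a control mean of 2.58 CPM, lay above its matched control at 32 weeks (log2 1.88) and at 2 of the 5 times in all. The 5 adipocyte genes summed to 7.02 FPKM in the 32-week irradiated pool, against 1.03 to 2.32 in controls. Their part in the Fabp4 value was not tested.

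Pparg, the nuclear receptor that drives lipid handling in these cells, differed least at 4 weeks among the 9 members that were lower there (ENSMUSG00000000440.10, chromosome 6, 115360951 to 115490399, plus strand). Control pools had 67.85, 85.3, 47.6, 80.6 and 66.1 CPM in time order. Irradiated pools had 94.9, 76.1, 36.4, 89.3 and 95.2 CPM. The 4-week pools were the lowest of each group, so the 4-week irradiated pool, though under all controls, was at 76.5% of its matched control (log2 −0.39). At 24 hours and 32 weeks Pparg was 1.40- and 1.44-fold above its control. The antisense gene Gm44079 overlaps it, and fragments of both cannot be told apart without strand.

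Chil3 and Car4 encode abundant proteins that are not confined to alveolar macrophages. Chil3, a secreted chitinase-like protein also made by some other myeloid cells (ENSMUSG00000040809.10, chromosome 3, 106147554 to 106167564, minus strand), had 10390, 8344, 6163, 13230 and 5944 CPM in controls. Irradiated pools had 14270, 6848, 2048, 15720 and 19590 CPM in time order. It went from 3.01-fold below its control at 4 weeks (log2 −1.59) to 3.3-fold above it at 32 weeks (log2 1.72), the widest range of matched differences among the members. Between 4 and 12 weeks Chil3 also differed 2.15-fold between the control pools. Of the 50-base stretches of its transcript, 17.9% are shared with the paralog Chil4, so part of its counts could belong there.

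Car4, a carbonic anhydrase anchored to the cell surface and also found on lung capillaries, was the one member above its control at 4 weeks (ENSMUSG00000000805.16, chromosome 11, 84957786 to 84966044, plus strand). Control pools had 289.5, 283, 199, 248.7 and 172 CPM in time order. Irradiated pools had 224, 310, 252, 317 and 555 CPM. From 1 week on every irradiated pool exceeded its matched control, by 1.10-, 1.26-, 1.28- and 3.23-fold. The 11 capillary endothelial genes summed to 202 FPKM in the 32-week irradiated pool and 167 FPKM in its control, inside the control range of 167 to 366 FPKM. In the 4-week pools they summed to 286.5 irradiated and 366 control, and in the 12-week pools to 135 and 208 FPKM. Single genes of the 11 differed at 4 weeks, from log2 −1.07 for Gpihbp1 to 0.16 for Ednrb, with 9 lower and 2 higher. At 32 weeks 5 lay lower and 6 higher (median 0.30), so the sums cover genes that went both ways. Ednrb lay above its matched control at 5 of 5 times and Kdr and Apln at 4. Plvap and Tbx2 did so at 3, Fibin and Pecam1 at 2, Aplnr, Cldn5 and Cdh5 at 1, and Gpihbp1 at 0. Their part in the Car4 values was not tested.

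**Figure D2:**
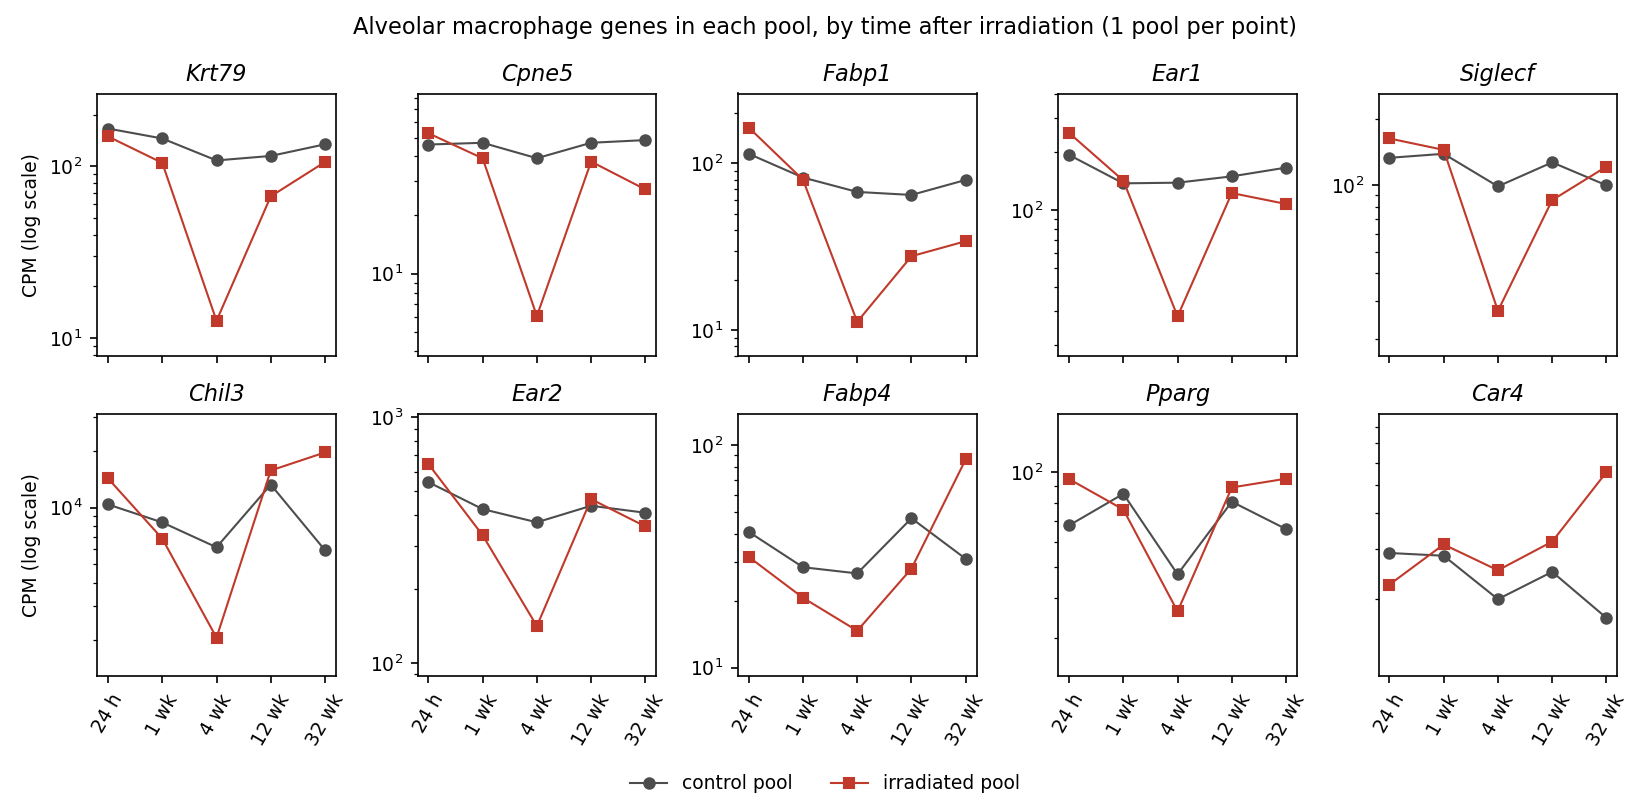
CPM on a log axis against time after irradiation for each of the 10 genes, with 1 control pool (grey circles) and 1 irradiated pool (red squares) per time. In 9 of 10 genes the lowest of all 10 pools is the irradiated 4-week pool; Car4 is the exception, and 4 genes reach their highest value in the irradiated 32-week pool.

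Set side by side, the members differed most from each other at 4 and at 32 weeks. At 24 hours 7 of 10 lay above the matched control, as did 49.6% of all genes, and 3 below it (50.4%), with a median log2 difference of 0.27 against 0.00 over the 15625 genes tested. None was 2-fold apart, where 4.64% of all genes were 2-fold lower and 3.34% higher. Fabp1, Pparg, Chil3, Ear1, Siglecf, Ear2 and Cpne5 lay above all 5 controls, against 22.1% of all genes, and none below them (21.2%). At 1 week 7 lay below the matched control (47.4% of all genes). The median was −0.21 (all genes 0.03) and the spread between members was the smallest, 0.60 on the log2 scale. None was 2-fold apart, where 3.46% of genes were lower and 6.5% higher. Krt79, Ear2, Fabp4 and Cpne5 lay below all controls (18.8% of genes), and Siglecf and Car4 above them (22.6%).

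At 4 weeks the median was −1.73, against 0.03 over all genes, and single members ran from −3.09 for Krt79 to 0.34 for Car4. Below the matched control were 9 members (46.8% of all genes) and above it 1 (53.2%). Of the 10 members, 7 were at least 2-fold lower, where 3.39% of all genes were, and 0 at least 2-fold higher, where 3.65% were. The 7 were Krt79, Cpne5, Fabp1, Ear1, Siglecf, Chil3 and Ear2. All but Car4 lay below all 5 controls, against 16.8% of genes, and none above them (19.1%). In the edgeR fit of this pool against the 5 controls, which adjusts over all genes, 7 genes were lower (0.0448% of genes) and 5 of these were Krt79, Cpne5, Ear1, Siglecf and Fabp1. It called 2 genes higher (0.0128%), neither of them a member. Since the genes were picked from this contrast, the counts describe the choice and nothing is read from them.

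**Figure D3:**
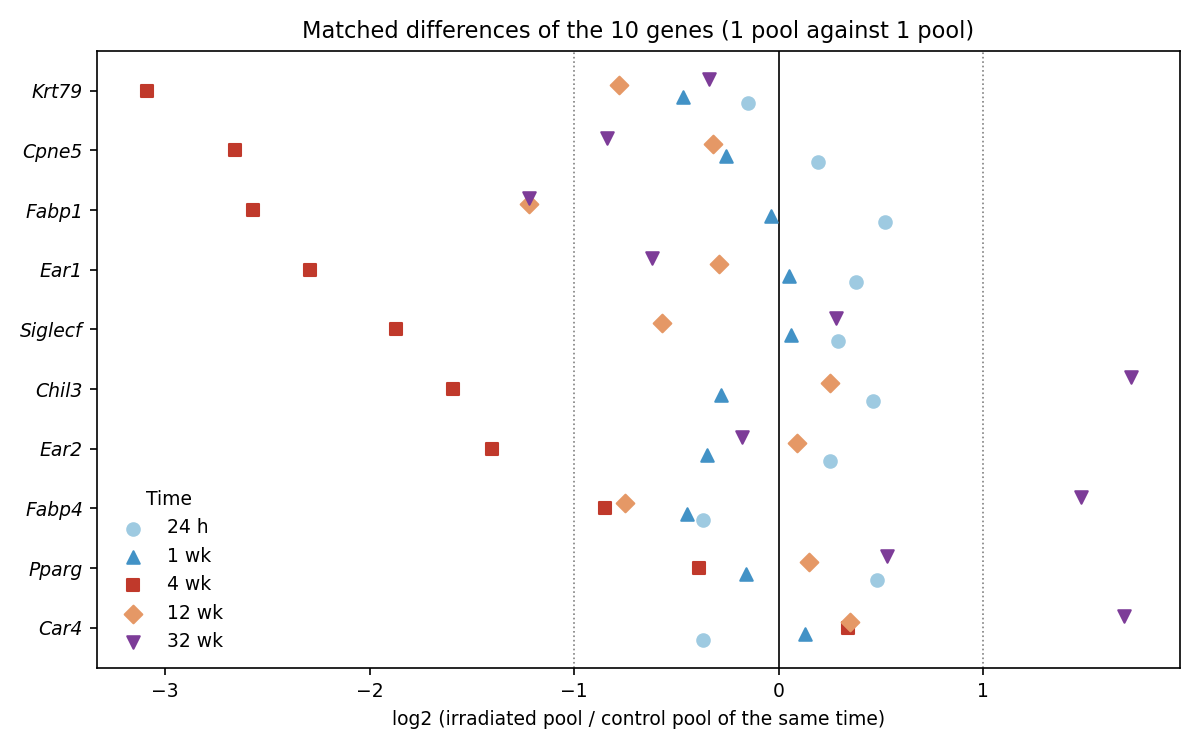
Log2 ratio of CPM between the irradiated pool and the control pool of the same time for each of the 10 genes, with 1 symbol per time and dotted lines at 2-fold. Red squares (4 weeks) spread from −3.09 to 0.34, and purple triangles (32 weeks) lie on both sides of 0, from −1.22 to 1.72.

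By 12 weeks the levels in irradiated lung were higher than at 4 weeks in all 10 members. The irradiated 12-week pool had 7.68 times the 4-week level of Chil3, 6.21 times that of Cpne5, 5.31 times that of Krt79 and 4.34 times that of Ear1. For Car4 the ratio was 1.26. Each ratio sets 1 pool against 1 pool. The genes were picked with the low 4-week values in view, so nothing is read from these ratios. The same ratio in controls was between 0.959 for Fabp1 and 2.15 for Chil3. Against the matched control the median was −0.30 (all genes 0.00), and 1 member, Fabp1, was 2-fold lower, as were 6.23% of genes. No member was 2-fold higher (5.25% of genes). Krt79, Ear1, Siglecf, Fabp1 and Cpne5 lay below all controls (21.5% of genes), and Pparg, Car4 and Chil3 above them (21.9%).

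At 32 weeks the members divided. The median was 0.05 (all genes 0.02), with 5 members below the matched control (48.2% of all genes) and 5 above it (51.8%), and the spread between members was 2.94 on the log2 scale. Chil3, Car4 and Fabp4 were at least 2-fold higher, where 8.32% of all genes were, and Fabp1 was at least 2-fold lower, where 8.01% were. Krt79, Ear1, Ear2, Fabp1 and Cpne5 lay below all 5 controls (23.3% of genes), and Fabp4, Pparg, Car4 and Chil3 above them (25.5%). Pparg (1.44-fold) and Siglecf (1.22-fold) were on the higher side of their matched controls too. The matched differences are plotted together by gene, which shows the 4-week values on the left and the 32-week values on both sides.

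Of the 7 members at least 2-fold lower at 4 weeks, 6 varied closely together over the 10 pools and Chil3 less so. Pearson's r of log2 CPM between pairs of Krt79, Ear1, Ear2, Siglecf, Fabp1 and Cpne5 lay between 0.82 and 0.97 (15 pairs). Without the irradiated 4-week pool these values were 0.30 to 0.89, so much of the likeness came from that pool. Chil3 had r between 0.42 and 0.79 with these 6, and between −0.38 and 0.36 without that pool. Pparg and Chil3 had r = 0.90 and kept 0.76 without it. Car4 had r between −0.30 and 0.54 with the other members. These correlations describe 10 pools that share controls, ages and pooling, and carry no p.

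Genes whose course was most like the mean of the members were ranked among 12359 genes with at least 50 counts on average. The first 10 by Pearson's r were Lilra5 (0.99), Mcemp1, Fcor and Il18 (0.96 each), Fpr1 and Gnpda2 (0.95 each), and Cidec, Cd302, Pnpla5 and Vstm2a (0.93 each), over 10 pools. Without the irradiated 4-week pool r stayed at 0.95 for Lilra5 and Mcemp1 and was 0.54 for Cidec and 0.35 for Pnpla5. Lilra5 was at 22.6 CPM in the 4-week irradiated pool, under its control range of 48.4 to 71.7 CPM. Pnpla5 was at 0.23 CPM there, against 3.43 to 6.73 CPM in controls.

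Other genes of the alveolar macrophage lay closer to control at 4 weeks. In a list of 20 such genes, the median matched log2 difference at 4 weeks was −0.29, with 15 lower and 5 higher. Of them, 3 lay at least 2-fold lower, namely Cidec, a lipid droplet protein (log2 −1.81), Ear10 (−1.59) and Il18, a cytokine (−1.36). The scavenger receptor Marco was at 124 CPM irradiated and 88.0 CPM control at 4 weeks (log2 0.50). Plet1, a surface protein, was at 301 and 273 CPM (0.14), and Itgax, which encodes the integrin CD11c, at 235 in both pools (0.00). The mannose receptor Mrc1 was at 228 and 237 CPM (−0.05) and the lipase Lpl at 441 and 537 CPM (−0.28). These 5 transcripts lay within 1.41-fold of the matched control in the pool where Krt79 stood at 11.8% of its own. Cidec, in the same list, was 3.52-fold lower. For each of the 5, and for Krt79, the matched control was the lowest of the 5 controls. The part of other lung cells in the values of the 5 was not tested. Against all controls the fitted log2 differences were −0.10 for Marco, −0.27 for Plet1, −0.35 for Itgax, −0.47 for Mrc1 and −0.76 for Lpl, and Mrc1 and Lpl lay under every control. With edgeR, 0 of the 20 passed at 4 weeks (smallest adjusted p = 0.0906, Cidec), 9 had an unadjusted p under 0.05, all lower, and DESeq2 called 3 and limma 0. The summed FPKM of the 20 was 767 in the 4-week irradiated pool, inside the control range of 741 to 1166.

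The same list lay higher at 24 hours, at 1 week and at 32 weeks. Of all genes, 49.6%, 52.6% and 51.8% lay above the matched control at these times. At 1 week 15 of the 20 did (median 0.2), and at 12 weeks 10 did (median −0.06). At 24 hours 16 of 20 were above the matched control (median 0.27), and 2 of 20 passed the edgeR test, which called 0.602% of all genes higher and 0.454% lower. Marco rose to 380 CPM against 133 ± 31.3 in the 5 controls (log2 1.52 ± 0.26 SE, edgeR adjusted p = 0.027). Siglec1, a sialic acid-binding receptor of macrophages, rose to 205 against a control mean of 75.1 CPM (log2 1.45 ± 0.25, edgeR adjusted p = 0.0278). Without the 1-week control the edgeR adjusted p was 0.0776 for Marco and 0.0781 for Siglec1; without the 32-week control it was 0.0534 for Marco, and without the 12-week control 0.0506 for Siglec1. Limma did not call Marco (adjusted p = 0.0555 and 0.0523), and with total count scaling the edgeR adjusted p of Siglec1 was 0.0904. At 32 weeks 16 of 20 were above the matched control (median 0.66), with Slc39a2 (1.52), Fabp5 (1.35), Atp6v0d2 (1.30), F7 (1.24) and Slc7a2 (1.05) past 2-fold, none of which passed the test. There edgeR called 0 of 20 (0.576% of all genes were called higher and 0.25% lower), with 10 at an unadjusted p under 0.05, all higher, while DESeq2 called 8 and limma 1 with a pseudocount of 1 and 0 with 0.1. At 1 week edgeR called 0, with 0.0192% of all genes called higher (3 unadjusted, DESeq2 1, limma 0), at 12 weeks 0 (6, 1 and 0), and over the 5 times 0 (4, 0 and 0). The p-values at single times measure the spread between control pools of different ages, which may be technical. They assume that the lone irradiated pool varies like the controls. Those over the 5 times and of a change with time rest on how the differences between irradiated and control varied between times.

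The GM-CSF, TGF-β and PPARγ axis that sets up these genes gave 0 calls of 16 genes in each edgeR comparison. At single times 1 to 5 had an unadjusted p under 0.05, and DESeq2 called 1 at 32 weeks and 0 otherwise, and limma 0. At 4 weeks 8 lay lower and 8 higher, with a median of 0.02, and at 12 weeks 15 lay higher, with a median of 0.39. The GM-CSF receptor chains Csf2ra (114 CPM irradiated, 108 control) and Csf2rb (146 and 143 CPM) were within 1.06-fold of the matched control at 4 weeks. Spi1, which encodes the myeloid factor PU.1, was at 220 and 177 CPM at 4 weeks (log2 0.31). At 32 weeks Csf2ra was 1.28-fold and Csf2rb 1.49-fold above the matched control, without passing (edgeR adjusted p = 0.28 and 0.14). Of 13 genes of lipid uptake, storage and export, Lipa, the lysosomal acid lipase, rose at 32 weeks (log2 0.99 ± 0.16, edgeR adjusted p = 0.0338), a call lost in 2 of 10 alternatives. No other gene of the 13 passed with edgeR at any single time or over the 5 times. At single times 2 to 6 of the 13 had an unadjusted p under 0.05, and DESeq2 called at most 2 and limma at most 1.

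Genes of other macrophages lay higher in pools where members were low, and also where they were high. At 4 weeks 11 of 14 monocyte and interstitial macrophage genes lay above the matched control (median 0.74), and they summed to 1526 FPKM against a control range of 856 to 1294. None passed with edgeR (4 unadjusted, all higher; DESeq2 and limma 0). Of 7 genes of monocyte-derived, lipid-associated macrophages, 6 were higher at 4 weeks (median 1.19), among them the elastase Mmp12 at 318 CPM against 26.3 to 162 in controls, which did not pass (edgeR adjusted p = 0.683). None of the 7 passed there (3 unadjusted; DESeq2 and limma 0), and they summed to 2906 FPKM, inside the control range of 2142 to 3047. At 24 hours 5 of the 14 rose, namely Pf4, Ms4a7, C1qc, C1qb and Lyve1 (matched log2 0.96 to 1.12, edgeR adjusted p 0.0183 to 0.0453), and the 14 summed to 2440 FPKM. The calls of C1qb and C1qc were each lost in 7 of 10 alternatives and that of Lyve1 in 5, total count scaling and both limma fits among them. At 32 weeks 3 of the 7 rose. These were Spp1, which encodes osteopontin (log2 4.16 ± 0.50, edgeR adjusted p = 0.0199), Trem2, a lipid-sensing receptor (1.91 ± 0.24, 0.0153), and Gpnmb (1.91 ± 0.36, 0.0485). The 7 summed to 6388 FPKM in that pool, above that range. The Gpnmb call was lost in 6 of 10 alternatives (adjusted p = 0.0661 with total count scaling and 0.134 without the filter), and that of Spp1 in 3 (0.0843 without the filter). Sums of the 7 weigh abundant genes most. At 4 weeks the 1 lower gene of the 7 was Cd9, which had their highest control mean, 2100 CPM. It was at 1287 CPM irradiated and 1741 CPM control, while 4 of the 7 were at least 2-fold higher. The part of these other macrophages in the members' values was not tested.

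**Figure D4:**
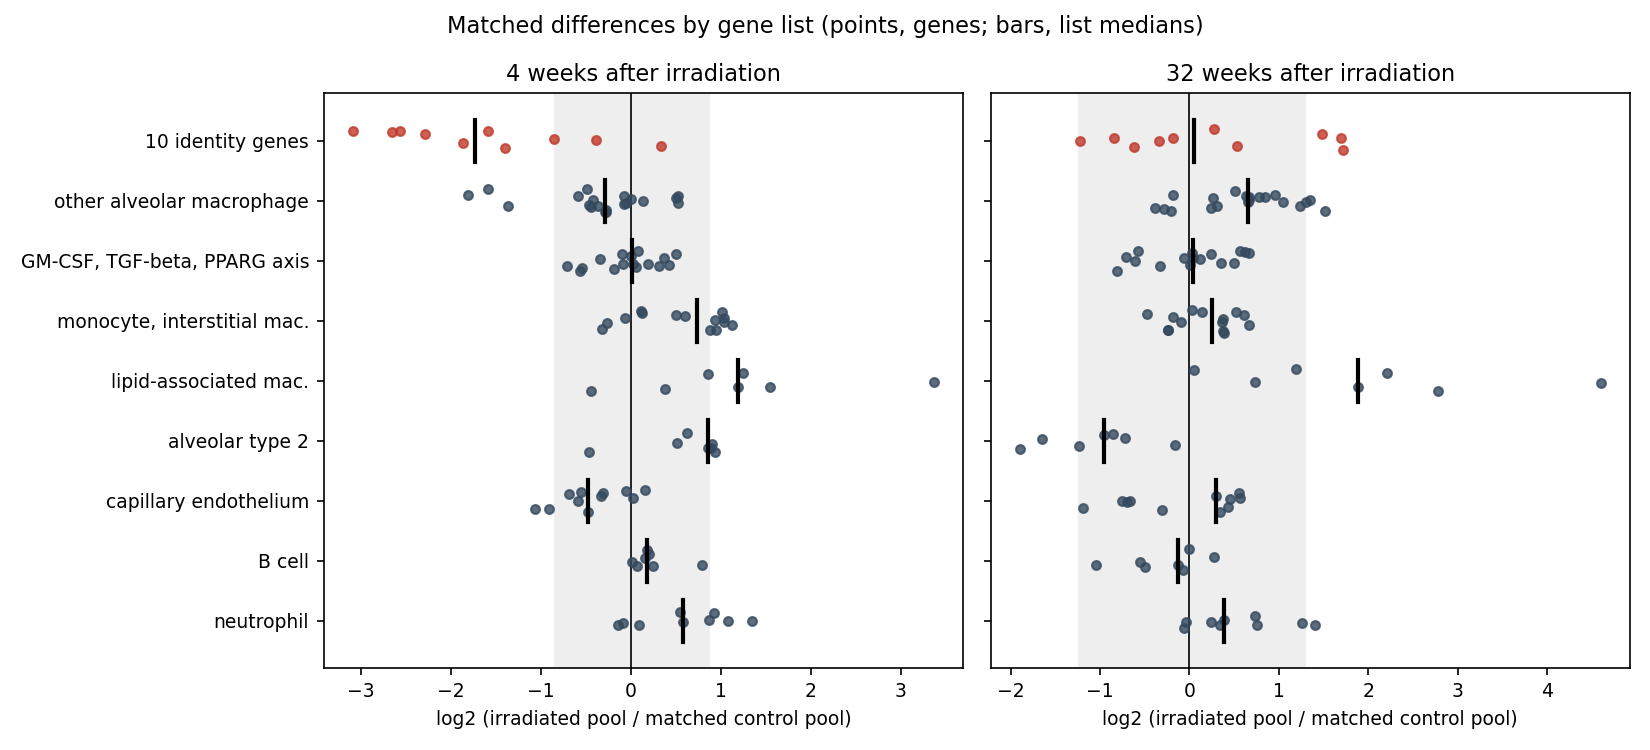
Matched log2 differences at 4 weeks (left) and 32 weeks (right) for the 10 members (red) and the tested genes of 8 other lists (dark points), with list medians as black bars; grey bands span the percentiles 5 to 95 of all 15625 genes. The members' median is −1.73 on the left and 0.05 on the right, and that of the other alveolar macrophage genes −0.29 and 0.66.

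Other cell types give the setting of the 4-week pool. Alveolar type 2 genes summed to 36770 FPKM in the 4-week irradiated pool, above the control range of 17430 to 34670, and to 47800 and 46240 FPKM in those of 24 hours and 1 week. They summed to 6093 and 7253 FPKM in the 12- and 32-week irradiated pools. B cell genes (432 FPKM; controls 356 to 546) and neutrophil genes (903; controls 670 to 1072) of the 4-week irradiated pool lay inside the control ranges. At 24 hours the type 2 genes Abca3 (log2 1.26) and Etv5 (1.25) and the endothelial gene Ednrb (1.19) rose and the B cell genes Cd79a (−1.45) and Cd79b (−1.33) fell. At 32 weeks the surfactant gene Sftpc (−2.02) and Etv5 (−1.38) fell. The edgeR adjusted p of these calls lay between 0.0157 and 0.0444. Keratinocyte genes, beside the keratin Krt79, summed to at most 3.40 FPKM in any pool. The part of these cell types in the members' values was not tested. Without the 1-week control, 17 of the 18 calls of listed genes were lost, with edgeR adjusted p from 0.055 to 0.116; Abca3 kept its call there and lost it with limma on log2(FPKM + 1), at an adjusted p of 0.0524. None of the 18 calls held under all 10 alternatives. No gene passed the edgeR test over the 5 times or of a change with time (1732 and 1095 genes at an unadjusted p under 0.05; DESeq2 258 and 60).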

How the data were processed

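RNA of whole-lung suspensions was sequenced in 10 pooled libraries, with the Clontech ultralow and NexteraXT kits, per the labels' protocols. The submitters' processing notes name GRCm38.p4, STAR 2.4.2a, Trimmomatic 0.32, Cuffdiff and Cufflinks 2.0.2. Which annotation they used is not given in the sources used here. Expected counts and FPKM of 45786 genes were deposited by the authors. The deposited expected counts lie on a common scale. Within 0.05, 78.5% to 82.3% of the values in a library were multiples of a step of 0.576 to 1.385, and division by it estimated the fragments. Symbols were matched to GENCODE M21 for 45137 IDs.

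Expected counts were rounded. Genes passing filterByExpr (minimum count 10) were tested with edgeR 4.0.16 in R 4.3.3 (TMM, robust quasi-likelihood, Benjamini-Hochberg over 15625 genes, threshold 0.05), with each irradiated pool against the 5 controls, over the 5 times with time as a block, and for treatment by log2 days. The code was tested on simulated data. Matched log2 ratios of CPM used a prior count of 2. Alternatives were total count scaling, no filter, DESeq2 1.42.0, limma 3.58.1 on log2 FPKM with a pseudocount of 1 or 0.1, no time block, the mean of the controls as reference, and leaving out single controls, times or members. Always named were Marco, Plet1, Itgax, Mrc1, Lpl, Cidec, Csf2ra, Csf2rb and Spi1, and up to 5 passing genes per list. The other 2-fold genes and Ear10, Il18 and Mmp12 were named after their values were seen. The members and the 13 other lists were chosen with earlier results of these data known.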

Additional observations from a re-analysis of the deposited data

Results flagged for a closer look

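Of 20 sets of 5 pools (10 members, control or irradiated), 2 held a pool far from the others on the log2 CPM scale. The cut-off was a gap of 0.71 of the whole range. The sets share pools, each mixes different times, and the members were picked with the 4-week values in view. No chance rate is therefore set beside the 2, and they are given as a description. The irradiated 4-week pool had 36.4 CPM of Pparg and the nearest irradiated pool 76.1 CPM, a gap of 0.77 of the whole range of log2 CPM. The control 4-week pool had 39.2 CPM of Cpne5 and the nearest control 46.1 CPM, a gap of 0.75 of the log2 range, so the matched 4-week difference of Cpne5 was taken against the lowest of its controls.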

How the results depend on the processing

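None of the 12 member values of at least 2-fold changed sign with total count scaling, FPKM with either pseudocount, or the mean of the controls as reference; 4 small values did, the largest of 0.18. The members' median at 4 weeks (−1.73) was −1.47 with FPKM + 1 and −2.08 against the mean of the controls, and −1.87 to −1.59 without single members. At 32 weeks (0.05) it was 0.31 and 0.32 with FPKM, and −0.18 to 0.28 without single members. Members at least 2-fold lower at 32 weeks (1) numbered 2 with total count scaling and 0 with FPKM at either pseudocount; 1 was 2-fold higher at 24 hours against the mean of the controls.

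Counts of all genes called moved more. Over the 5 times (0) there was 1 gene without the filter and 258 with DESeq2, and for the change with time (0) 1 and 60. At 24 hours (165) there were 260 without the filter, 543 with DESeq2 and 101 with limma + 1, and 66 to 169 without single controls. At 1 week (3) there were 0 with total count scaling, 31 without the filter, 252 with DESeq2 and 0 to 12 without single controls. At 4 weeks (9) there were 30, 95, and 16 and 17 with limma, and 5 to 15 without single controls. At 12 weeks (0) there were 37, 238, and 7 and 13 with limma, and 0 to 2. At 32 weeks (129) there were 65 with total count scaling, 365 without the filter, 857 with DESeq2 and 381 with limma + 1, and 8 to 299. The cause was not tested.

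Of the 20 other alveolar macrophage genes, 2 were called at 24 hours, 1 with total count scaling or limma at either pseudocount, and 0 to 2 without single controls. Calls at 4 weeks (0) numbered 2 without the filter, 3 with DESeq2 and 0 to 1 without single controls, and at 32 weeks (0) 4, 8, 1 with limma + 1 and 0 to 1. DESeq2 gave 1 at 1 week and 1 at 12 weeks. Pools carry no replicate numbers. Time paired them as a block over the 5 times, and without that block 0 genes were called as well.

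With 1 pool per time and treatment, a difference between mice, pools or dissociations and an effect of irradiation cannot be told apart at any single time. Many calls were lost without the 1-week control, when 66 genes were called at 24 hours and 8 at 32 weeks.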
